A study of Homo sapiens with 33 samples.

Results

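MeT-5A, the SV40-immortalised mesothelial cell line, was set against cell lines of malignant pleural mesothelioma (MPM) in their control state. The 2 MeT-5A libraries without drug and the 13 vehicle libraries of 5 MPM cell lines were taken, 15 of the 33 RNA-seq libraries of the series, and all genes were kept. One MeT-5A library came from untreated cells and the other from cells given 0.1% DMSO for 9 days. MPP89 (2 libraries), MSTO-211H (3), NCI-H28 (3), NCI-H2452 (3) and NCI-H2052 (2) had all received 0.1% DMSO, for 9 days or, in 1 library of each line but MPP89, for 10 days. All cells grew in the same medium with fetal bovine serum. MPP89 carries a mutated RB1, and the series uses MeT-5A as a model of cells without working pRb. MeT-5A is 1 line from 1 immortalisation, so what sets mesothelial cells apart from MPM cells, what SV40 immortalisation did and what belongs to this line alone cannot be told apart here. The libraries of an MPM line are repeat cultures or repeat treatments, while the 2 MeT-5A libraries differ in treatment. P-values over libraries thus measure the spread within lines, which for MeT-5A includes that difference.

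Mesothelial cells form the single cell layer that lines the pleura, and they carry both keratins and vimentin. The large T antigen of SV40 binds the retinoblastoma proteins and p53. When the retinoblastoma proteins are bound or lost, E2F transcription factors are released and switch on the genes of DNA synthesis, and the same release normally waits for cyclin D kinases. MPM is known for loss of the 9p21 region with CDKN2A and CDKN2B, of BAP1 and of NF2.

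Levels are given in counts per 20000000 mapped reads (CP20M), which the authors rounded up to whole numbers. From the step between low values, the 15 libraries held about 13020000 to 23560000 reads (median 17000000), and the 2 MeT-5A libraries were the shallowest, at about 13330000 (untreated) and 13020000 (DMSO). At that depth 1 read is worth up to 1.54 CP20M, so levels of a few CP20M rest on a few reads. The depth was poorly determined for NCI-H28 replicate 1 and NCI-H2052 replicate 2. Observed and fitted steps correlated there at 0.27 and 0.471, beside 0.977 and 0.971 in untreated and DMSO-treated MeT-5A. The MeT-5A pair was also the least alike: 3801 of 17379 genes (21.9%) were over 1.5-fold apart, beside 1242 to 3731 (7.15 to 21.5%) in the pairs within an MPM line. The mitochondrial ribosomal RNA MT-RNR1 divided the libraries, at 103 CP20M in untreated MeT-5A and 13075 in the DMSO library. It lay at 7388 to 12182 in replicate 2 of NCI-H2452, NCI-H28, MSTO-211H and MPP89, and at 52 to 594 in the other 9 MPM libraries. The division thus followed the replicate number in the MPM lines except NCI-H2052, whose replicate 2 was low, while DMSO-treated MeT-5A, high, carries number 1. The labels give no reason for it. The 100 most abundant genes held 11.3 and 11.5% of the reads in MeT-5A and 13.2 to 16.1% in the MPM libraries. Results are therefore also given within the libraries low or high in MT-RNR1 and after 2 scalings that depend less on the most abundant genes. The MT-RNR1 division was chosen after its values were seen.

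Differences were taken on log2(CP20M + 10), over the 17379 genes that reached 100 CP20M in any of the 15 libraries. A difference named without a line is the MeT-5A mean minus the mean of the 5 MPM line means, and its standard error (SE) rests on the spread between lines. With 1 line against 5, limma called no gene at a false discovery rate of 0.05 and over 1.5-fold (0% of genes, lowest adjusted p = 0.1226). At an unadjusted p under 0.05, 591 genes were higher and 274 lower. Together these are about as many as that threshold passes among 17379 genes without any difference. An exact permutation test of 1 line among 6 cannot go below p = 0.167. On libraries instead of line means, the contrast with the mean of the 5 lines called 5225 genes higher (30.1%) and 2762 lower (15.9%), counts that take no account of the spread between lines. The genes described here were therefore read from the comparison of MeT-5A with each of the 5 lines. In limma, 1104 genes (6.35%) were higher and 378 (2.18%) lower in MeT-5A than in all 5 lines, 8.53% in all, each at an adjusted p under 0.05 and over 1.5-fold. Below, "called" means this. The 5 comparisons share the same MeT-5A libraries, so they are not 5 independent tests.

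Both MeT-5A libraries lay above all 13 MPM libraries for 2399 genes (13.8%) and below them for 766 (4.41%). The balance of higher and lower calls depended on the scale. The median difference over all genes was 0.21 log2 as deposited, -0.08 after median-of-ratios scaling and -0.09 after upper-quartile scaling. Of the calls, 74.5% were higher as deposited, against 47.9% (601 higher, 654 lower) and 51.0% (628 higher, 604 lower) after the scalings. Called under all 3 were 536 higher and 376 lower genes, and every gene named below as called under 3 scalings is among these. Leaving out the NCI-H28 line raised the lower calls to 637, and leaving out MPP89 raised the higher calls to 1792.

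MPP89 was the line closest to MeT-5A. The root mean square difference of log2 levels was 1.224 from MPP89, 1.458 from NCI-H2052, 1.516 from MSTO-211H, 1.56 from NCI-H2452 and 1.655 from NCI-H28. Between MPM lines it ran from 1.338 to 1.785, so MeT-5A was closer to MPP89 than any of the MPM lines were to one another. Against MPP89 alone 3785 genes (21.8%) were higher in MeT-5A, beside 5549 to 6313 (31.9 to 36.3%) against the other lines. The lower genes did not follow this, with 3090 (17.8%) against MPP89 and 3075 to 3627 (17.7 to 20.9%) against the other lines. MeT-5A and MPP89 were also neighbours on the first principal components, which held 31.2, 22.3 and 20.1% of the variance.

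**Figure D1:**
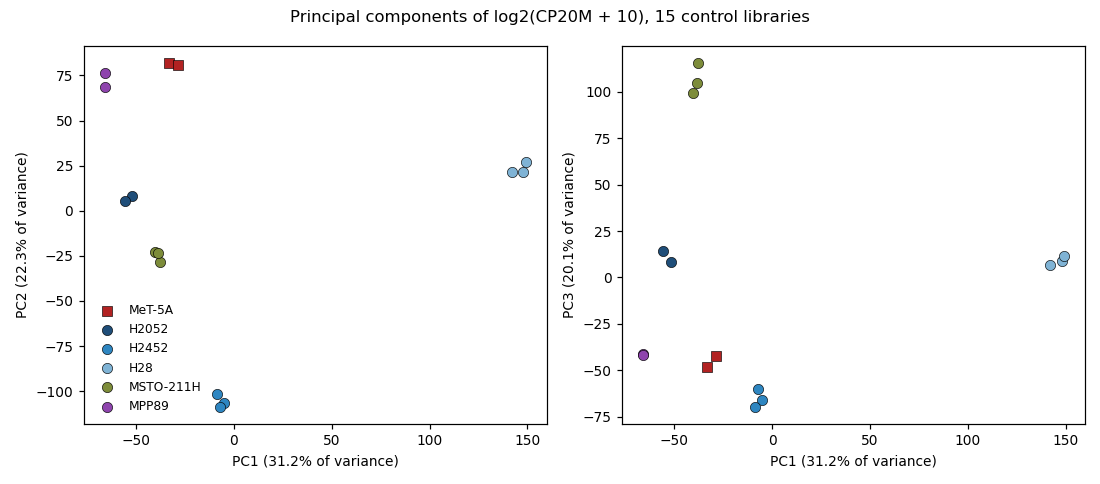
Scores of the 15 control libraries on the first 3 principal components of log2(CP20M + 10), 1 point a library and 1 colour a cell line; the axes give the percent of variance (31.2, 22.3 and 20.1). Libraries of a line lie together, and MeT-5A lies next to MPP89.

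The markers by which mesothelium is recognised did not set MeT-5A above the MPM lines. Of 14 mesothelial identity genes 10 passed the filter on low values. None was called higher (6.35% over all genes) and 1 was called lower (2.18% over all genes). The median difference was -0.52, beside 0.21 over all genes. It ran from -0.93 to -0.02 with 1 library left out at a time, and was -0.01 in the libraries low in MT-RNR1. Against single lines the median went from -2.04 for NCI-H2052 to 1.24 for NCI-H28. The gene called lower was WT1, the transcription factor used to identify mesothelium (chromosome 11, 32387775 to 32435564). WT1 stood at 2 CP20M in untreated and 0 in DMSO-treated MeT-5A, against 107, 255 and 591 (lowest, median and highest MPM library). Both MeT-5A libraries were thus close to no reads while every MPM library had clear expression (difference -4.67, SE 0.72; largest limma adjusted p over the 5 lines 5.95e-07), and the call held under 3 scalings. MSLN, which codes for the surface protein mesothelin, was at 167 and 91 CP20M in MeT-5A. The MPM lines spread widely around it, with a mean of 4.33 in NCI-H28 and 4256 in NCI-H2052. Calretinin, from CALB2, was at 534 and 404 CP20M in MeT-5A, above 4 lines and below the MPP89 mean of 1118. KRT5, ITLN1, HAS1 and MUC16 stayed at 14 CP20M or less in both MeT-5A libraries.

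Epithelial and mesenchymal genes split within MeT-5A. Of 12 simple epithelial genes tested none was called higher (6.35% over all genes) and 1 was called lower (2.18% over all genes). The lower one was CLDN1, a tight junction claudin, at 152 and 79 CP20M against 294, 1340 and 6405 (difference -3.55, largest limma adjusted p = 0.0224). That call was lost without either MPP89 library and without the DMSO-treated MeT-5A library. The keratin pair of simple epithelia was plentiful: KRT8 stood at 31545 and 45413 CP20M and KRT18 at 15976 and 23548 in MeT-5A. The type I keratin gene KRT19 was at 2 and 0 CP20M, beneath every MPM library, but MSTO-211H and MPP89 were also nearly without it (means 6 and 11) and NCI-H2052 had a mean of 23580. KRT19 was not called. Vimentin, from VIM, was lower in MeT-5A, at 11402 and 15740 CP20M against 20650, 38428 and 63804 (difference -1.52, SE 0.54; largest adjusted p = 0.00584), a call lost without untreated MeT-5A or without MPP89 replicate 1. ZEB1, a repressor of epithelial genes, was at 369 and 334 CP20M against 565, 887 and 1547 (difference -1.32, largest adjusted p = 0.000355). Most of the 16 mesenchymal genes went the other way. A positive difference was seen in 12, beside 10558 of 17353 over all genes, each symbol counted once. The median was 0.75, beside 0.21 over all genes, and went from -0.33 against MPP89 to 2.0 against NCI-H28. Of the 16, 1 was called higher (6.2%, beside 6.35% over all genes) and these 2 lower (2.18% over all genes). With NCI-H28 replicate 2 left out 2 were called higher.

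The cell cycle genes under E2F control gave many higher calls. Of 38 genes of the G1/S transition 13 were called higher (34.2%, beside 6.35% over all genes) and none lower. In both MeT-5A libraries 25 lay above all 13 MPM libraries, beside 13.8% over all genes. The difference was positive for 37 of 38, SLBP being the exception, beside 10558 of 17353 over all genes. Its median over the list was 1.28 (0.98 after median-of-ratios scaling). The summed level of the list was 123057 and 129842 CP20M in MeT-5A, against 23043, 51671 and 81830 (lowest, median and highest MPM library). The median difference ran from 0.70 against NCI-H28 to 1.76 against MSTO-211H, with 1.03 against MPP89. The count fell to 7 under either other scaling, and ran from 7 to 14 with 1 library left out at a time. It was 7 without untreated MeT-5A, 8 without the DMSO-treated library, 8 in the libraries low in MT-RNR1, and 14 with the MT-RNR1 level as a term. The 7 genes called under 3 scalings were MYBL2, E2F1, E2F2, RBL1, GINS1, CCNE2 and PCNA, and none of these lost its call under any alternative tried.

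MYBL2 codes for B-Myb, which drives late cell cycle genes, and lies on chromosome 20 (43667019 to 43716495). It was at 19106 and 19039 CP20M in MeT-5A and at 173, 1205 and 3704 in the MPM libraries. The lower of the MeT-5A values was thus far above the highest MPM library (difference 3.91, SE 1.00; largest limma adjusted p = 0.000375). E2F1, the first described E2F factor (chromosome 20, 33675477 to 33686385), stood at 5741 and 4599 CP20M against 125, 903 and 1591 (difference 2.68, SE 0.84; largest adjusted p = 0.00417). E2F2, its relative on chromosome 1 (23506438 to 23531233), stood at 1326 and 1355 CP20M against 37, 312 and 411 (difference 2.54, SE 0.96; largest adjusted p = 0.00317). The groups of libraries did not overlap for either factor.

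RBL1 codes for p107, a pocket protein related to pRb that restrains E2F (chromosome 20, 36996349 to 37095997). It was at 3215 and 3241 CP20M against 212, 603 and 1022 (difference 2.36, SE 0.67; largest adjusted p = 5.61e-05). GINS1, a subunit of the replicative helicase, was at 4085 and 3246 CP20M against 251, 680 and 1201. PCNA, the sliding clamp of DNA polymerase, was at 7016 and 6080 CP20M against 948, 2217 and 3005. Both are on chromosome 20, and their differences were 2.31 and 1.67. CCNE2, which codes for the CDK2 partner cyclin E2, was at 1142 and 1248 CP20M against 106, 262 and 566 (difference 2.04). These 3 genes also showed no overlap between the groups.

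The promoters of E2F1, E2F2 and RBL1 are shown because genes for the E2F factors and for a pocket protein are themselves read by E2F. Each sequence covers the 120 bases before the RefSeq start site (GRCh38.p14, minus strand, read 5′ to 3′), and capitals mark matches to the E2F motif.
E2F1, chr20:33686386-33686505: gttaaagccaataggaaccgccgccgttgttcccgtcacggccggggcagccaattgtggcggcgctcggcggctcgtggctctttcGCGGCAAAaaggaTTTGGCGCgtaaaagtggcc
E2F2, chr1:23531234-23531353: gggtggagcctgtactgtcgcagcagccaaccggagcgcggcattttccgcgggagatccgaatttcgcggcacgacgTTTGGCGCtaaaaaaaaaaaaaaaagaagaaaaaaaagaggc
RBL1, chr20:37095998-37096117: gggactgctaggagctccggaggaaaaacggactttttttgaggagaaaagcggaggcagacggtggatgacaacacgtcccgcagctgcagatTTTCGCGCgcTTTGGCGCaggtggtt

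The motif was searched as TTTGGCGC, TTTCCCGC, TTTCGCGC or TTTGCCGC on either strand, in 300 bases around each RefSeq start site. Matches began 33 and 20 bases before the start site in E2F1, 42 in E2F2, and 26 and 16 in RBL1. The letters were found in 908 of 27305 promoters (3.33%), in 20 of the 32 promoters matched to the G1/S list (62.5%) and in 2 of 17 matched to the mitosis list (11.8%). Among promoters of all genes called higher in MeT-5A 62 of 667 held them (9.30%), and among those called lower 10 of 255 (3.92%). MYBL2 had no match in its window. The G1/S list was drawn up as targets of E2F, so its high share follows from that choice and is no result about MeT-5A. The 27305 promoters were not limited to the genes tested, so their share is not a like measure for the called genes.

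Genes of mitosis gave fewer calls. Of 22, 4 were called higher (18.2%, beside 6.35% over all genes) and none lower. Above all 13 MPM libraries lay 17 of them, beside 13.8% over all genes. The median difference was 1.2 (0.90 after median-of-ratios scaling). CDK1, the kinase of mitotic entry, was at 3597 and 3850 CP20M against 449, 1284 and 1670 (difference 1.75, SE 0.54; largest adjusted p = 0.00749). It was the only member called after median-of-ratios scaling. UBE2C, which feeds ubiquitin to the anaphase-promoting complex, was at 4809 and 5186 CP20M against 276, 1145 and 2499 (difference 2.13). FOXM1 and CCNB2 were the others. The count ran from 0 to 7 with 1 library left out at a time: it was 0 without MPP89 replicate 1, 2 without MPP89 replicate 2, 1 without DMSO-treated MeT-5A, 2 without untreated MeT-5A, 7 without MSTO-211H replicate 3 and 0 in the libraries low in MT-RNR1. CCNB1, for cyclin B1, was at 2754 and 3043 CP20M beside MPM line means from 1749 in MSTO-211H to 3025 in NCI-H2452, and was not called.

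**Figure D2:**
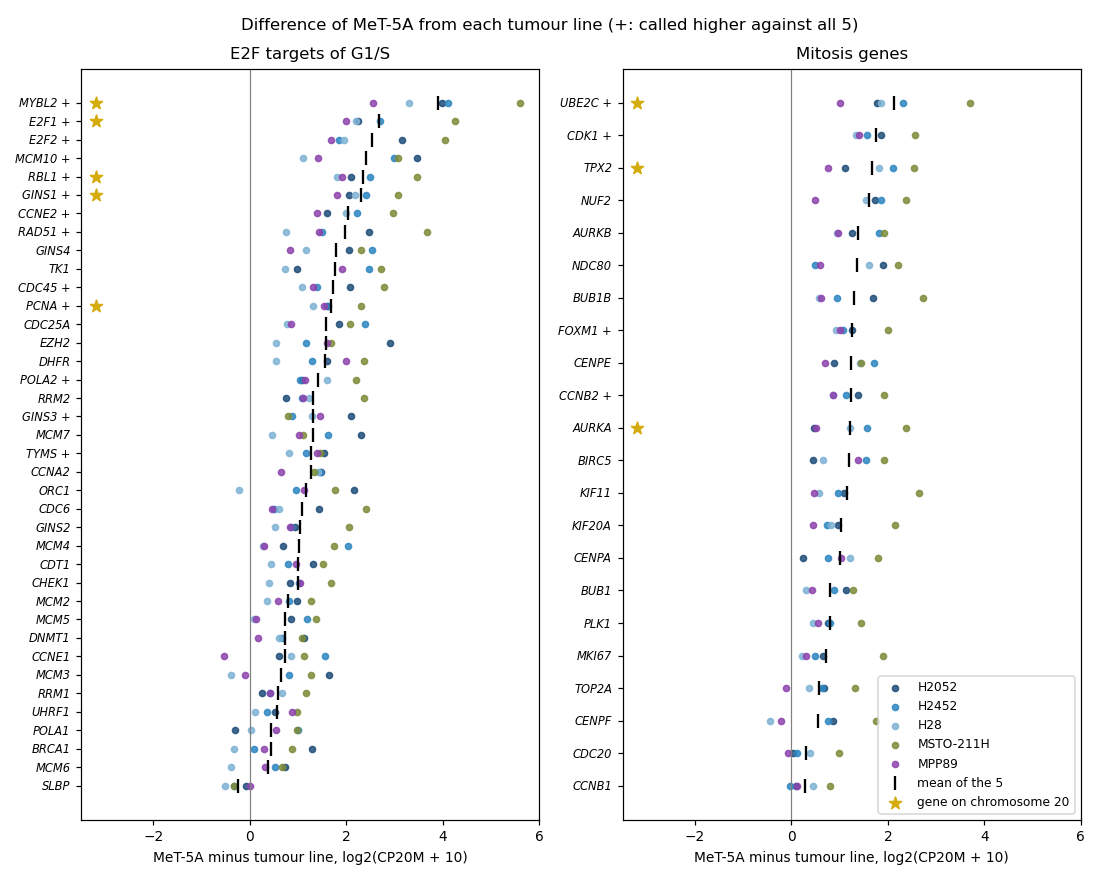
Difference of MeT-5A from each of the 5 MPM lines, log2(CP20M + 10) on the horizontal axis, for the 38 G1/S genes and the 22 mitosis genes, 1 row a gene and 1 point a line; a plus marks genes called higher against all 5 lines (13 and 4). Most points lie right of 0, and MYBL2 lies farthest right.

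Position on chromosome 20 moved with the G1/S count. Of the G1/S list 5 genes lie on chromosome 20 (MYBL2, E2F1, RBL1, GINS1 and PCNA), and all 5 were called, under 3 scalings, with a median of 2.36. Of the other 33 genes 8 were called (24.2%), 2 under median-of-ratios scaling, with a median of 1.16. Their summed level was still higher in MeT-5A, at 83894 and 93637 CP20M, than in any MPM library (21334, 46341 and 73159). With 1 library left out their count ran from 2, without untreated MeT-5A, to 9. Of the mitosis list 1 of 3 genes on chromosome 20 was called higher, and 0 under 3 scalings (median 1.66). Elsewhere it was 3 of 19, and 1 under 3 scalings (median 1.15). These splits by chromosome were made after the values were seen.

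Chromosome 20 as a whole stood apart. Of its 479 genes tested 141 were called higher (29.4%, beside 6.35% over all genes) and 3 lower, and 68 of the higher ones held under 3 scalings. The chromosome carries 2.76% of the genes tested and 12.8% of the higher calls, and with its genes left out 963 of 16900 (5.70%) were called higher. Its median difference was 0.98 (0.69 after median-of-ratios scaling), and by line it was 0.63 against NCI-H2052, 1.07 against NCI-H2452, 1.30 against NCI-H28, 1.28 against MSTO-211H and 0.68 against MPP89. The 2 MeT-5A libraries gave 1.10 and 0.84, and within the libraries low or high in MT-RNR1 the medians were 1.10 and 0.93. The count ran from 97 without untreated MeT-5A to 175 without the DMSO-treated library. After median-of-ratios scaling 14.6% of the genes were called higher. Chromosome 14 came next by median (0.72, 12.4% called higher). DNA copy number was not analysed here.

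**Figure D3:**
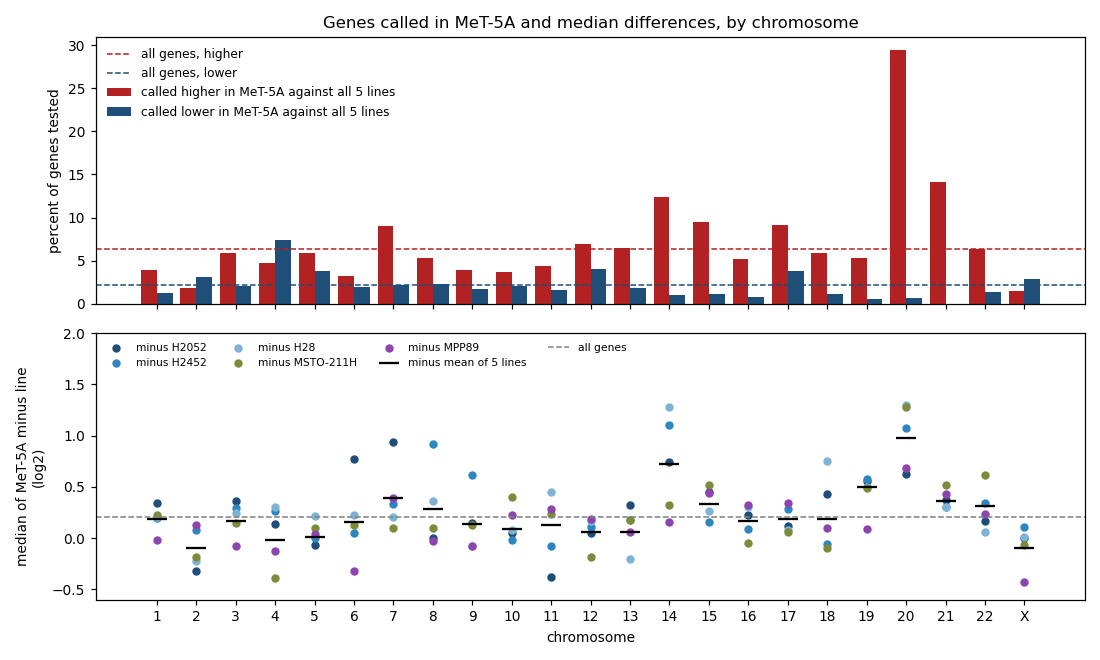
Upper panel, percent of tested genes called higher or lower in MeT-5A against all 5 MPM lines, for each chromosome, with dashed lines at the values over all genes. Lower panel, median log2 difference from each line (points) and from the mean of the lines (bars); chromosome 20 has 29.4% called higher and a median of 0.98.

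Windows of 10 Mb with at least 20 protein-coding genes (239 in all, GRCh38) showed where the calls clustered. In 4 of them over 20% of genes were called higher, 3 on chromosome 20 and 1 on the short arm of chromosome 17. After median-of-ratios scaling 1 window stayed over 20%, from 60 to 70 Mb on chromosome 20 (22.2%). On chromosome 17, from 10 to 20 Mb, 28 of 74 genes were called higher (37.8%, beside 6.35% over all genes, and 18.9% after median-of-ratios scaling). From NCOR1 to AKAP10 it was 24 of 49 (49.0%), with a median of 1.52 and medians of 0.88 to 1.94 against single lines, a stretch whose ends were set after the values were seen. In that stretch 28.6% were called after median-of-ratios scaling, and with 1 library left out 21 to 25 genes.

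TOP3A, the DNA topoisomerase III alpha gene (chromosome 17, 18271428 to 18315007), was at 6540 and 6446 CP20M against 685, 901 and 1752 (difference 2.68, SE 0.50; largest limma adjusted p = 1.92e-06). NCOR1, a corepressor of nuclear receptors (16029065 to 16218185), was at 9970 and 11339 CP20M against 2787, 3715 and 4387 (difference 1.56, SE 0.36; largest adjusted p = 1.45e-06). CENPV, a centromere protein gene, was at 2732 and 2174 CP20M against 29, 328 and 1081 (difference 3.15). SREBF1, which codes for the sterol-responsive factor SREBP1, was at 8960 and 10160 CP20M against 2335, 3476 and 5655 (difference 1.42), a call lost in the libraries low in MT-RNR1. In none of the 4 genes did the MeT-5A and MPM libraries overlap.

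The opposite pattern stood on the short arm of chromosome 12. From 20 to 30 Mb 17 of 34 genes were called lower in MeT-5A (50%, beside 2.18% over all genes), the only window over 20% on the deposited scale, with a median difference of -1.27 and medians of -1.02 to -1.49 against single lines. After median-of-ratios scaling 61.8% were called lower, the highest share of 4 windows over 20%. With 1 library left out 14 to 18 genes were called lower. LDHB, a subunit of lactate dehydrogenase (chromosome 12, 21635342 to 21757857), was at 1175 and 1351 CP20M against 6046, 10786 and 19331 (difference -2.95, SE 0.58; largest adjusted p = 2.12e-06). PPFIBP1, which codes for a liprin of cell adhesions, was at 382 and 385 CP20M against 983, 1813 and 2378 (difference -2.10). BHLHE41, a repressor of the circadian clock, was at 23 and 14 CP20M against 87, 365 and 1420 (difference -3.51), a call lost in the libraries low in MT-RNR1. PDE3A, a cyclic nucleotide phosphodiesterase gene, was the 1 gene called higher there, at 1459 and 2077 CP20M against 1, 9 and 103.

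**Figure D4:**
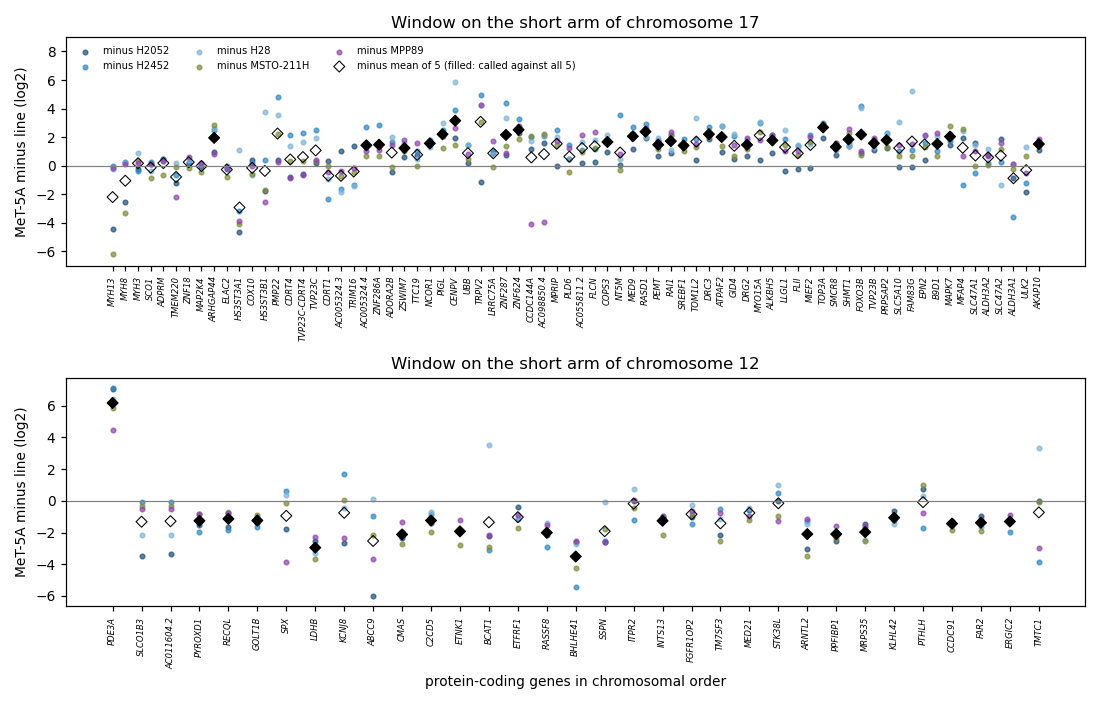
Log2 difference of MeT-5A from each MPM line for protein-coding genes of a window on the short arm of chromosome 17 and of chromosome 12, in chromosomal order. Most points lie above 0 in the former, where 28 genes were called higher, and below 0 in the latter, where 17 were called lower.

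At 9p21, MeT-5A had transcripts of CDKN2B, the p15 inhibitor of CDK4 and CDK6 (chromosome 9, 22002903 to 22009305), at 2622 and 4710 CP20M. The means were 0 in 4 MPM lines and 1666 in MPP89 (difference 6.99, SE 2.82; largest adjusted p = 0.00331). Since 4 lines were at 0, the fitted difference depends on the value of 10 that was added. MLLT3, farther out on 9p, was called lower, at 29 and 74 CP20M against 151, 263 and 771 (difference -2.39, SE 0.76; largest adjusted p = 0.000342). Of 10 genes of the region tested 2 were called higher (20%, beside 6.35% over all genes), CDKN2B and its antisense neighbour CDKN2B-AS1, and 1 under median-of-ratios scaling. The median difference was 2.71 overall but 4.23 against NCI-H2052 and NCI-H2452, 0.85 against NCI-H28, 0.91 against MSTO-211H and -0.38 against MPP89. CDKN2B-AS1 lost its call without untreated MeT-5A and without either MPP89 library. Of 14 MPM tumour suppressor genes only SAV1, a scaffold of the Hippo pathway, was called higher (7.1%, near the 6.35% over all genes). SAV1 was at 2338 and 2277 CP20M against 416, 803 and 1669, and the call was lost under both other scalings and without MSTO-211H replicate 1. Without MSTO-211H replicate 2 the count was 2.

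Targets of p53 gave few calls, and the sign of their median difference changed with the line. It was -1.23 against NCI-H2052, -0.82 against MSTO-211H and -0.31 against NCI-H28, but 0.91 against NCI-H2452 and 0.52 against MPP89. Of 31 tested 1 was called higher (3.2%, beside 6.35% over all genes) and 2 lower (2.18% over all genes), with a median of -0.20. PPM1D, a phosphatase that damps p53 signalling, was at 1238 and 1710 CP20M against 373, 563 and 707 (difference 1.40, SE 0.44; largest adjusted p = 0.00011). EDA2R, a receptor of the TNF family, was at 2 and 2 CP20M against 13, 409 and 1065 (difference -3.85), and PLK2, a polo-like kinase gene, was at 2772 and 2547 against 5141, 13749 and 37957 (difference -2.33, largest adjusted p = 0.00268). EDA2R lost its call without MPP89 replicate 1, and 3 genes were called lower without untreated MeT-5A. CDKN1A, for p21, stood at 2347 and 2518 CP20M and MDM2 at 5358 and 5628, both inside the MPM range.

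Genes of the smooth muscle contractile apparatus were high in MeT-5A and in MPP89. The 16 genes were listed after the values were seen, so their count is a description. Of 14 tested 5 were called higher (35.7%, beside 6.35% over all genes), and 5 under each of 3 scalings. The median difference was 2.56, but 0.51 against MPP89 and 2.08 to 5.78 against the other lines. Against the 4 lines without MPP89, 11 were called higher, beside 1792 of 17379 over all genes.

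MYL9, the regulatory light chain of smooth muscle myosin (chromosome 20, 36541497 to 36551447), was at 29547 and 31135 CP20M against 2, 704 and 9690 (difference 5.74, SE 3.14; largest limma adjusted p = 0.000357). TAGLN, which codes for the actin-binding SM22, was at 24482 and 23021 CP20M against 45, 452 and 7972 (difference 5.51, SE 2.27; largest adjusted p = 0.00385). The groups did not overlap for either. MYH11, the heavy chain of smooth muscle myosin, was much lower in level, at 758 and 503 CP20M against 72, 195 and 289, and its call was lost without untreated MeT-5A. ACTG2 and CNN1, for smooth muscle actin gamma and calponin, were at 762 and 1169 and at 507 and 464 CP20M in MeT-5A, below the MPP89 means of 5876 and 8684. ACTA2 was at 5353 and 8012 CP20M against 17, 239 and 10453, with overlap and no call.

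Targets of YAP and TEAD, the end of the Hippo pathway, were called at about the rate of all genes, 2 of 25 higher and 1 lower (median 0.63). CTGF, a matricellular protein gene and target of YAP and TEAD (chromosome 6, 131948176 to 131951372), was at 15489 and 17803 CP20M against 85, 815 and 4490 (difference 4.26, SE 1.58; largest adjusted p = 6.71e-05). TGFB2, a TGF-beta ligand gene, was at 8233 and 5708 CP20M against 1, 367 and 5975. The DMSO-treated MeT-5A library thus fell within the MPM range, and TGFB2 was not called. The gene called lower was MYOF, a membrane repair ferlin, at 3501 and 1865 CP20M against 4979, 19208 and 24483 (difference -2.50), and GADD45B, the second higher one, lost its call under both other scalings, without untreated MeT-5A and without NCI-H2052 replicate 2. Without DMSO-treated MeT-5A 3 were called higher.

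Members of the Notch pathway, in which binding of a ligand on one cell leads to cleavage of a receptor on its neighbour, were listed after the values were seen. Of 14 genes 8 passed the filter and 3 were called higher (37.5%, beside 6.35% over all genes), under 3 scalings and with any 1 library left out. The receptor NOTCH3 (chromosome 19, 15159038 to 15200995) was at 7691 and 13276 CP20M against 17, 246 and 1645 (difference 5.31, SE 1.64; largest limma adjusted p = 4.96e-05). The ligand JAG1 (chromosome 20, 10637684 to 10673999) was at 14387 and 20543 CP20M against 434, 763 and 1609 (difference 4.52, SE 0.67; largest adjusted p = 8.79e-08). The target HES1, a repressor that Notch turns on, was at 1117 and 1383 CP20M against 10, 131 and 345 (difference 3.77, SE 1.57; largest adjusted p = 0.00018). In all 3 the lowest MeT-5A library was above the highest MPM library. A second ligand, JAG2, was at 3492 and 3469 CP20M against 479, 967 and 2663, above every MPM library but without a call. The receptors NOTCH1 (3723 and 3834 CP20M) and NOTCH2 (6555 and 6254) lay inside the MPM range, and the median over the 8 genes was 2.08. After upper-quartile scaling NOTCH2 and the ligand gene DLL1 were called lower.

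**Figure D5:**
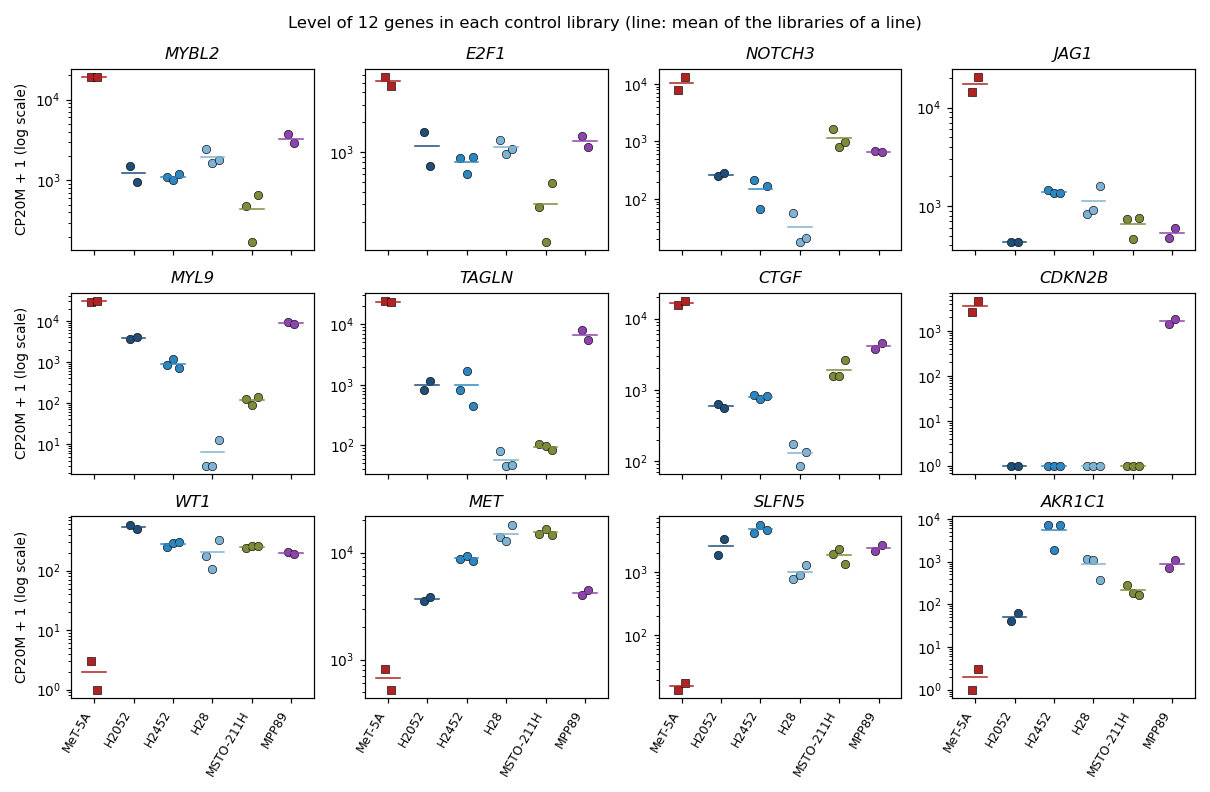
CP20M + 1 on a log scale for 12 genes in each control library, grouped by cell line (squares MeT-5A, circles MPM lines, short bars the line means). MYBL2, E2F1, NOTCH3, JAG1, MYL9, TAGLN, CTGF and CDKN2B lie higher and WT1, MET, SLFN5 and AKR1C1 lower in MeT-5A than in any MPM library.

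Of 33 receptor tyrosine kinase genes tested 4 were called higher (12.1%, beside 6.35% over all genes) and 1 lower (2.18% over all genes), with a median of 0.32. Under either other scaling 2 were called higher and 2 lower. MET, the receptor of hepatocyte growth factor (chromosome 7, 116672196 to 116798377), was at 812 and 524 CP20M against 3556, 9385 and 18204 (difference -3.58, SE 0.87; largest adjusted p = 2.88e-07). The vascular endothelial growth factor receptor gene FLT1 was at 607 and 607 CP20M against 0, 8 and 107 (difference 4.80, SE 1.14; largest adjusted p = 1.61e-05). FLT4, its lymphatic relative, was at 277 and 309 CP20M against 0, 39 and 115 (difference 3.01). These 3 held under 3 scalings. IGF1R, at 13442 and 12336 CP20M against 110, 2526 and 8703, lost its call under both other scalings, and EPHA5 did so as well and without DMSO-treated MeT-5A or either NCI-H2052 library. EGFR, at 2553 and 1642 CP20M, was near the MPP89 mean of 2224 and below the other line means of 8368 to 16820, without a call.

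Among 29 HOX genes tested 3 were called higher (10.3%, beside 6.35% over all genes) and none lower (median 1.19). By line the median was 3.27 against NCI-H2452 and 2.01 against NCI-H28, but 0.44 against MPP89, 0.11 against NCI-H2052 and -0.75 against MSTO-211H. HOXA4, a positional identity factor, was at 196 and 228 CP20M against 2, 14 and 87 (difference 2.79, SE 1.30; largest adjusted p = 0.000508), and its neighbour HOXA5 at 376 and 375 against 0, 95 and 230 (difference 2.58), a call lost without NCI-H2052 replicate 1. HOXC11 lost its call under both other scalings, without untreated MeT-5A and without the same NCI-H2052 library. Of 29 extracellular matrix genes 1 was called higher (3.4%, beside 6.35% over all genes) and 1 lower (2.18% over all genes). Their median was 0.20, and went from -1.96 against MPP89 to 2.21 against NCI-H28. Decorin, from DCN, was at 890 and 3002 CP20M against 0, 3 and 133 (difference 6.34, SE 1.26; largest adjusted p = 4.07e-05). LOXL2, a collagen cross-linking oxidase, was at 6363 and 5662 CP20M against 10620, 15411 and 27225 (difference -1.36). COL5A2 was at 15402 and 19786 CP20M against 22, 736 and 15222, above every MPM library, but without a call.

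Of 22 secreted inflammatory factors tested none was called higher (6.35% over all genes) and 2 were called lower (2.18% over all genes). A positive difference was seen in 5, beside 10558 of 17353 over all genes. The median was -1.35, with medians from -1.88 against NCI-H2052 to 0.02 against NCI-H28. Among the lower ones, PLAU, for urokinase, was at 85 and 14 CP20M against 67, 743 and 2470 (difference -3.85), with overlap, and its call was lost without DMSO-treated MeT-5A or NCI-H28 replicate 3, which left 1 call in the list. The cytokine genes IL6 (2 and 4 CP20M) and CXCL8 (4 and 0) were near 0 in MeT-5A.

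Immune recognition genes gave no calls, beside 8.53% called either way over all genes. None of 35 interferon-stimulated genes was called either way (median -0.14), and the medians against single lines went from 2.54 above NCI-H28 to -2.03, that is, lower than MPP89. None of 12 MHC class I genes was called, although all 12 differences were negative (median -0.69), where 10558 of 17353 over all genes were positive. Against single lines the median went from -2.29 for NCI-H2452 and -1.77 for MPP89 to 0.08 for NCI-H2052 and 1.11 for NCI-H28. None of 6 APOBEC3 deaminase genes was called (median 0.37). Of 32 cancer-testis antigen genes 3 passed the filter and none was called. The 32 genes summed to 2 CP20M in each MeT-5A library, against 4, 163 and 1616 in the MPM libraries.

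Aldo-keto reductases, which reduce carbonyls and steroids and include targets of NRF2, were listed with other NRF2 targets. This list of 13 was drawn up after the values were seen. None had a positive difference (median -0.92), beside 10558 of 17353 over all genes. Of the 13, 4 were called lower (2.18% over all genes), under 3 scalings. AKR1C1 (chromosome 10, 4963253 to 4983283) was at 0 and 2 CP20M against 39, 706 and 7304 (difference -5.58, SE 2.01; largest adjusted p = 0.00375). AKR1C3 was at 7 and 8 CP20M against 40, 1224 and 6384 (difference -5.57). AKR1C2 was called too, but lost its call without either MeT-5A library or NCI-H2052 replicate 2. These genes are near-identical copies, so reads could be divided among them in the authors' counting. Without NCI-H2052 replicate 1 the count was 5. TXNRD1, for thioredoxin reductase, was at 13407 and 10968 CP20M against 22146, 36179 and 53289 (difference -1.45, largest adjusted p = 0.00246), while NQO1 (3944 and 6128 CP20M) lay inside the MPM range. Of 4 metallothionein genes 1 was called lower (2.18% over all genes). It was MT2A, at 364 and 1007 CP20M against 1066, 3270 and 3910, and the call was lost without untreated MeT-5A.

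The 12 largest differences each way were ranked among genes called under 3 scalings and without overlap of the groups, 416 higher and 324 lower. Those higher in MeT-5A were MYL7, CDKN2B, CARMN, DCN, CPB1, SERPINB9, PDE3A, LMCD1, SLC24A3, HIST1H4F, EPPK1 and CBLN2, with differences from 7.10 to 5.90. MYL7, an atrial myosin light chain gene (chromosome 7, 44138864 to 44141332), was at 2335 and 1099 CP20M against 0, 0 and 11 (SE 0.98; largest adjusted p = 2.46e-09). CPB1, for pancreatic carboxypeptidase B, was at 792 and 1099 CP20M against 0, 0 and 17 (largest adjusted p = 5.71e-09). CARMN, a long noncoding RNA, was at 4960 and 1922 CP20M, with 1348 as the MPP89 mean and at most 2.5 in the others, and its call was lost without untreated MeT-5A. SERPINB9, an inhibitor of granzyme B, was at 2609 and 2122 CP20M against 0, 2 and 1038, and LMCD1, a LIM domain corepressor gene, at 5041 and 2973 against 2, 11 and 883. For CARMN, CDKN2B, SERPINB9, LMCD1, HIST1H4F and EPPK1 MPP89 had the highest MPM mean, from 475.5 CP20M for HIST1H4F to 1666 for CDKN2B. Where MPM libraries were at 0, these differences depend on the added value of 10.

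Among those lower in MeT-5A were SLFN5, PLAGL1, FGF5, DIAPH2, FAM129A, CA12, AKR1C1, AKR1C3, COBLL1, MDFIC and SCN9A, with differences from -6.44 to -5.54. SLFN5, a Schlafen family gene (chromosome 17, 35243071 to 35273655), was at 13 and 17 CP20M against 773, 2137 and 5514 (SE 0.76; largest limma adjusted p = 3.29e-09). PLAGL1, an imprinted zinc finger gene, was at 2 and 0 CP20M against 428, 1075 and 1668 (difference -6.31, SE 0.71). DIAPH2, a formin gene on the X chromosome, was at 0 and 2 CP20M against 352, 996 and 1532 (difference -6.14, SE 0.69). MDFIC, which codes for an inhibitor of MyoD family factors, was at 0 and 4 CP20M against 372, 557 and 1095 (difference -5.54, SE 0.52). In these 4 genes all MPM lines were well expressed and MeT-5A was at or near 0. FGF5, a fibroblast growth factor gene, was at 0 and 4 CP20M, with line means from 230 in MPP89 to 5934 in MSTO-211H. CA12, a carbonic anhydrase gene, was at 11 and 10 CP20M, with line means from 70 in MPP89 to 6902 in NCI-H28.

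Markers of other cell types were summed in each library, since in bulk RNA fewer cells of a type and less RNA per cell cannot be told apart. Their part in the results above was not tested. Leukocyte markers summed to 272 and 369 CP20M in MeT-5A against 163, 752 and 1605, and lung epithelial markers to 40 and 95 against 6, 25 and 141, with none of those 8 passing the filter. Endothelial markers summed to 131 and 251 CP20M against 51, 210 and 407, and PECAM1, their defining gene, was at 2 and 0 in MeT-5A. Of the 5 endothelial genes tested CLDN5 was called higher (20%, beside 6.35% over all genes), a call lost under both other scalings. Without untreated MeT-5A the gene did not pass the filter. Fibroblast markers summed to 10898 and 25687 CP20M against 2531, 3517 and 144283. Of 8 tested 5 had a positive difference, near the share over all genes (10558 of 17353). Their median was 1.66, with medians from 4.54 against NCI-H28 to -2.30 against MPP89. Of these markers THY1 (13 and 2 CP20M), FAP (2 and 7) and PDGFRA (7 and 5) were near 0 in MeT-5A. DCN was the 1 marker called higher (12.5%, beside 6.35% over all genes).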

How the data were processed

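RNA-seq libraries were directional and paired-end. Per the submitters' notes and the study's methods, the authors trimmed reads with Trimmomatic 0.36, mapped them to GRCh38 with STAR 2.5.3 and counted genes with HTSeq 0.9.1. They deposited counts scaled to 20000000 mapped reads per library (CP20M) and rounded up to whole numbers, a normalised score and not a raw count, so count models were not used. The deposited columns summed to 20007662 to 20019921, and depth was estimated from the steps between low values. All columns matched a label.

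Genes at 100 CP20M or more in any of the 15 libraries were kept, 10 was added and log2 taken. limma 3.58.1 (R 4.3.3), with moderated variances following mean level, was fitted to line means (1 against 5), and to libraries with 1 coefficient a line, contrasted with each MPM line and with their mean. Benjamini-Hochberg adjustment was over all genes; calls needed an adjusted p under 0.05 and over 1.5-fold. Simulated data with 200 changed genes in the 17379-gene line-mean fit gave calls for 0, 2, 40 and 74% of genes changed by 1, 2, 4 and 6 log2 units, with 2 false calls. Positions came from GENCODE (GRCh38; 17215 genes matched by identifier, 164 not) and promoters from RefSeq.

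The lists and comparisons were chosen with earlier results of these data known. The rule for named genes took members called in the line-mean fit and named none; it was applied instead, after values were seen, to genes called against all 5 lines. Other scalings, added values (1 and 50), filters, left-out libraries and lines, 9-day libraries, the MeT-5A palbociclib library added and MT-RNR1 classes split at 1000 CP20M were tried. Some genes are not reported here.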

Additional observations from a re-analysis of the deposited data

How the results depend on the processing

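Called genes are given as higher/lower in MeT-5A. Against line means 0/0 became 0/4 with 1 added in place of 10 and 259/10 without the filter; no other alternative gave a call, leaving out any 1 library included (0 to 0 both ways). Against each of the 5 lines, 1104/378 became 601/654 with median-of-ratios scaling and 628/604 with upper-quartile scaling. Without the MPP89 line it was 1792/554, and without the NCI-H28 line 1402/637. Leaving out 1 library gave 744 to 1227 higher and 320 to 392 lower; the fewest higher calls, 744, came without untreated MeT-5A. In the fit on libraries against the mean of 5 lines, 5225/2762 became 3434/4167 and 3384/4217 under the 2 scalings. Alternatives chosen after seeing the data, an MT-RNR1 term and the libraries low in MT-RNR1, gave 1173/389 and 1131/317 against each line.

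Of 121 named genes, 68 kept their side of the threshold under all 32 settings and none changed direction. With replicate numbers as a block (DMSO libraries only), calls were 814/417 against each line. Same-numbered libraries of different lines correlated at -0.049 to 0.353 in their deviations (median 0.164, 19 of 23 pairs over 0.1), different-numbered ones at a median of -0.11, and 10 of 13 MPM libraries were closest to one of their own number. Since not every same-numbered pair was over 0.1 and the labels tie no number to a day or batch, the fit without the block was kept; the data hint at structure shared by number, as MT-RNR1 does. The shallow MeT-5A libraries limit what can be seen at a few CP20M, and 2 libraries of 1 line limit every comparison.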

Other observations

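The 2 MeT-5A control libraries differed in single genes, as values without a test, since each condition has 1 library. CBLN2, a secreted synapse organiser gene, was at 430 CP20M untreated and 2796 with DMSO, and RORB, a nuclear receptor gene, at 354 and 2003. In the other direction, PODN, a leucine-rich matrix protein gene, was at 193 CP20M untreated and 11 with DMSO, and AKR1B10, an aldo-keto reductase gene outside the AKR1C group, at 266 and 25. The mitochondrial ribosomal RNAs MT-RNR1 (103 and 13075 CP20M) and MT-RNR2 (836 and 24617) differed by more, and whether DMSO, culture or library preparation moved with these genes cannot be told apart.

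The MeT-5A library treated with palbociclib, which no comparison above uses except where stated, was set against the MPM control lines by region. The median log2 difference was 0.83 on chromosome 20 (1.10 in untreated and 0.84 in DMSO-treated MeT-5A), 1.53 for the stretch from NCOR1 to AKAP10 on 17p (1.54 and 1.51), and -1.32 for the window on 12p (-1.30 and -1.33).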
